A study of Mus musculus with 10 samples.

Results

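ASZ001 is a mouse basal cell carcinoma (BCC) line, which the study uses as a model of resistance to inhibitors of Smoothened, and its expression without any pathway inhibitor is described here from samples that received only the vehicle DMSO. Of the 10 RNA-seq samples of the series, 5 received DMSO, at a concentration that the labels do not give. The 3 DMSO samples that accompany the ALK5 inhibitor SB431542 and the 2 that accompany the AP-1 inhibitor T-5224 were deposited in separate tables. All 5 came from cells expanded in 154CF medium with 2% chelated serum and then held for 24 h in the same medium with 0.2% serum, at 0.05 mM calcium throughout. The cells are 1 established line in monoculture, with no stroma, and low calcium is a condition in which keratinocytes form few junctions. The values are RPKM, in which a gene's reads are divided by its length and by the size of the library. Levels can thus be compared between genes of a library, less surely for genes with copies of their sequence elsewhere in the genome. The tables were normalized separately and are treated as separate batches: ranks are set side by side and no test was made between them. Where a pair of values or sets is given for a gene, the table with SB431542 comes first and the table with T-5224 second, and a single value per table is the mean of its DMSO libraries. A rank of 1 is the highest row, among 17658 named rows in the table with SB431542 and 16719 in the table with T-5224.

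BCC grows from basal keratinocytes of the epidermis and hair follicle. Basal keratinocytes depend on the transcription factor p63, carry the paired filament proteins keratin 5 and keratin 14, and sit on the basement membrane through hemidesmosomes. In BCC the Hedgehog pathway is active, and the study ties BCC of Gorlin syndrome to inherited loss of the Patched gene ptch1. Where a ligand drives the pathway, it binds Patched, Patched then releases Smoothened, and Smoothened turns on the Gli transcription factors. Targets of the Gli factors include Gli1 itself. The DMSO samples are the baseline against which the study measured the effect of blocking the TGFß receptor and AP-1 on that output.

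The libraries of a table ranked genes much alike. Total reads, estimated from the ladder of whole reads in short genes, were between about 31900000 and 48800000, so that 1 RPKM of a 2 kb transcript stood for about 63.8 to 97.6 reads. Spearman correlations across rows were 0.9826 to 0.9854 within the table with SB431542, 0.9882 within the table with T-5224 and 0.9396 to 0.9489 between libraries of different tables, where rows are not independent replicates. Each DMSO library was set, gene by gene, against the mean log2 level of the others in its table. In the table with SB431542, the SD of these differences was 0.27 for replicate 1, against 0.16 and 0.19 for replicates 2 and 3. DMSO replicate 1 of that table thus stood apart from its partners. It was below both partners in Rn45s, the ribosomal RNA precursor, at 770.3, 2101 and 2155 RPKM in replicates 1, 2 and 3, and in Lars2 at 101, 367 and 407 RPKM. It was above both in Ndufa12, a subunit of respiratory complex I, at 248, 139.8 and 132 RPKM. The study's methods call the samples biological replicates, here of 1 cell line.

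A similar share of rows was expressed in both tables. In the table with SB431542, 60.2% of rows reached 1 RPKM in every DMSO library, 33.5% reached 10 RPKM and 3.21% reached 100 RPKM. In the table with T-5224 these shares were 63.7%, 35.3% and 3.52%. The 10 highest rows held 6.9 to 6.99% of summed RPKM in the libraries of the first table and 8.19 to 8.38% in the second, and the 1000 highest rows held 58.2 to 58.7% and 55.5 to 55.7%. Most of the summed RPKM thus lay outside the 10 highest rows.

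Krt5 was the highest row and Krt14 the next in both tables. Krt5 (mm9 chromosome 15, 101537501 to 101543322) was at 5007, 4851 and 4809 RPKM in the 3 DMSO libraries with SB431542 and at 5916 and 6087 RPKM in the 2 with T-5224. Krt14 (mm9 chromosome 11, 100064476 to 100068862) was at 3896, 4061 and 4270.0 RPKM and at 5468 and 5948 RPKM. The 2 genes did not overlap in the first table and overlapped in the second, so their order was resolved in the first table only. Together with 10 other rows they were among the 25 highest of both tables. These 10 were Krt17, the elongation factors Eef1a1 and Eef2, the ribosomal protein gene Rpl41, Rn45s, the chaperone Hsp90ab1, the ferritin light chain Ftl1, Actb, and the metal-binding metallothioneins Mt1 and Mt2. The 13 rows found only among the 25 highest of the table with T-5224 held Lgals7, a galectin of stratified epithelia (rank 10 there and 74 in the other table), Cst3, a secreted inhibitor of cathepsins (rank 11 and 123), and Krt6a (rank 24 and 103). The 13 found only among the 25 highest of the table with SB431542 held Ppia, Gapdh, Actg1, Ptma and 9 genes that encode ribosomal proteins.

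The abundant keratins were those known from basal and from wounded epidermis. All keratin rows together held 2.84 to 2.89% of summed RPKM in the libraries with SB431542 and 4.49 to 4.72% in those with T-5224, and Krt5 alone held 1.24 to 1.3% and 1.72 to 1.77%. Krt17, a keratin of the hair follicle and of BCC, was at 1532, 1484 and 1519 RPKM and at 3035 and 3134 RPKM, at ranks 11 and 4. Krt15, a keratin of bulge stem cells, was far lower, at 26, 22.9 and 24.6 RPKM and 50.8 and 55.1 RPKM. Among keratins induced by wounding, Krt6a was at 468 ± 73.6 RPKM (SD, n = 3) and 826 ± 33.8 RPKM (SD, n = 2), and its partner Krt16 at 75.4 ± 11.3 and 144 ± 4.32 RPKM. Krt6a held 83.5 to 84.4% of the summed RPKM of its group of 4 in the first table and 82 to 83.6% in the second. Krt6a shares sequence with its relatives: 76.3% of its 30-base coding windows recur elsewhere in the mm9 genome, against 41.2% for Krt14 and 17.3% for Krt5, so the split of reads between keratins is uncertain.

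Keratins of other layers were at a few RPKM at most. None of the 6 keratins of simple epithelia reached 1 RPKM in every library, where 60.2% and 63.7% of all rows did. Their highest member, Krt19, was at 0.18, 0.178 and 0.081 RPKM and 0.374 and 0.166 RPKM. Krt8, which pairs with Krt18 in simple epithelia, was at 0 and 0.007 RPKM. Krt18 was at 0.012 and 0 RPKM. Of the keratins of the spinous layer, Krt10 was at 1.44, 1.32 and 1.59 RPKM and 2.66 and 2.69 RPKM, while its partner Krt1 was at 0.048 and 0.378 RPKM. None of the 8 inner root sheath keratins reached 1 RPKM in every library of either table. Of the 13 keratins of the hair shaft, Krt85 (2.75 and 4.23 RPKM) and Krt32 (1.24 and 1.59 RPKM) reached 1 RPKM in every library of both tables.

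**Figure D1:**
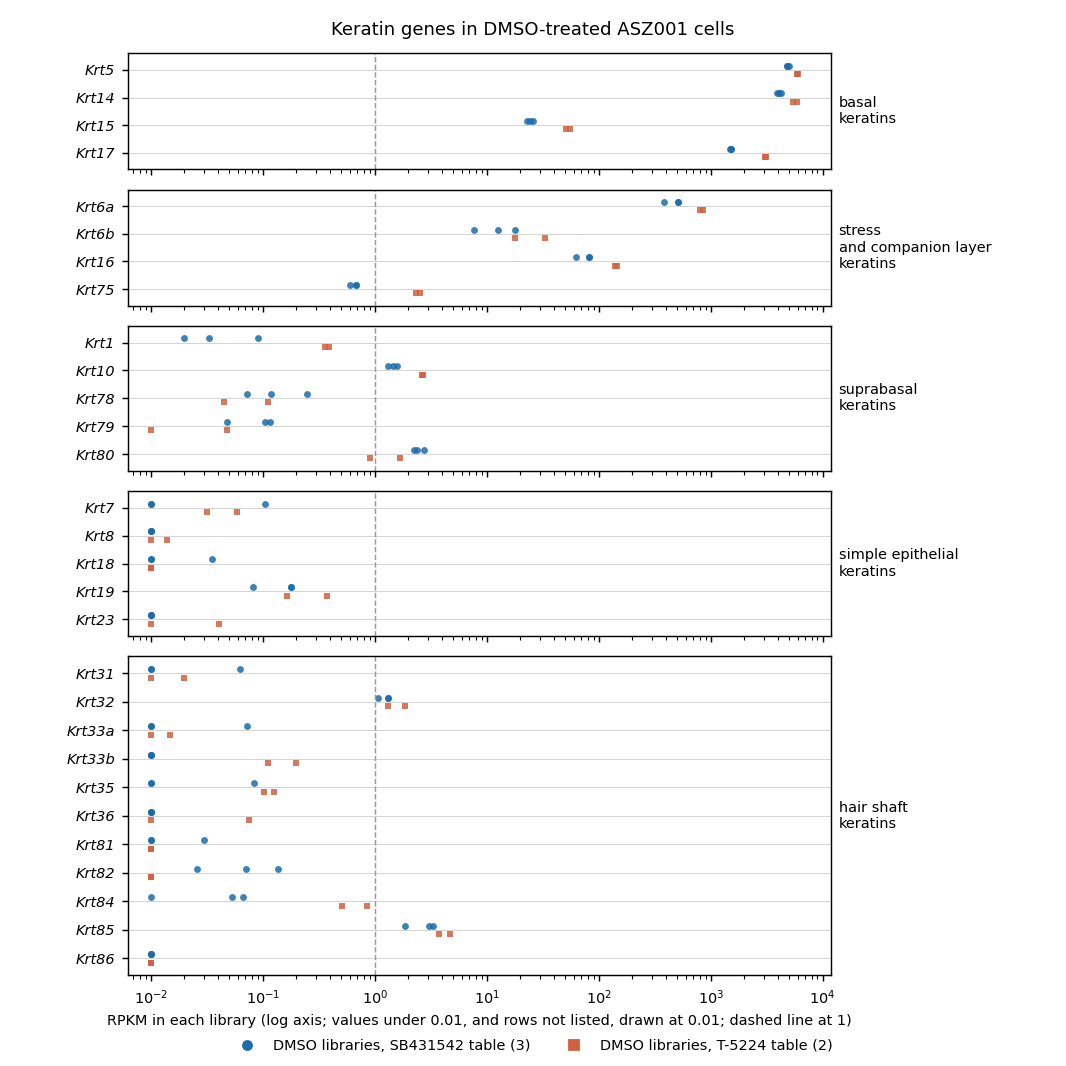
RPKM of keratin genes in each DMSO library on a log axis, by keratin group, with circles for the 3 libraries of the table with SB431542 and squares for the 2 of the table with T-5224. Krt5, Krt14 and Krt17 lie above 1000 RPKM in every library, while the simple epithelial keratins lie under 1 RPKM.

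Transcription factors of basal epidermis and of hair follicle were expressed together. Trp63 (mm9 chromosome 16, 25683849 to 25892188), which encodes p63, was at 96.1, 77.5 and 70.6 RPKM and 73.6 and 76.2 RPKM, at ranks 830 and 858. Sox9, a factor of the bulge and of BCC, was at 93.8 ± 14.9 RPKM (SD, n = 3) and 125 ± 3.52 RPKM (SD, n = 2). The libraries of Sox9 and Trp63 overlapped in the first table and not in the second. Of the 31 basal epidermal factors listed, 30 and 29 reached 1 RPKM in every library of the 2 tables and 18 and 19 reached 10 RPKM, above the shares of all rows at both levels. Tfap2a (50.6 and 45.8 RPKM), Klf5 (47.6 and 69.1), Klf4 (66 and 51) and Barx2 (59.7 and 90) were among them, and Sox2, a pluripotency factor also found in skin tumors, was at 19.5 and 19.1 RPKM. The factors of late differentiation were low, with Grhl3 at 1.65 and 0.496 RPKM and Zfp750 at 0.102 and 0.441 RPKM.

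Genes of the hair matrix and of the bulge were each expressed in part. Of 23 matrix genes, 18 and 17 reached 1 RPKM in every library of the 2 tables, as did 12 and 12 of 22 bulge and hair germ genes, where 60.2% and 63.7% of all rows did, so the count of the second list lay near that of all rows. The bulge list was led by Cdh3 (112 and 103 RPKM) and Sox9 (93.8 and 125 RPKM), followed by Nfib (68.8 and 28.7 RPKM) and Id2 (46.2 and 57 RPKM), all of which are also expressed in other epithelia. The matrix list was led by Ctsl (129.8 and 210 RPKM) and Cux1 (101.9 and 130.5 RPKM), both above the members named next. Ctsl was also a member of the list of proteases and inhibitors, so its level is not specific to the matrix. The homeobox gene Hoxc13, which acts in the hair shaft, was at 14.4, 12.8 and 12.7 RPKM and 22.8 and 26.8 RPKM. Tchh, which encodes trichohyalin of the inner root sheath, was at 32.2, 22.2 and 20.8 RPKM and 73 and 92.1 RPKM. The deiminase gene Padi3, whose enzyme modifies trichohyalin, was at 21.4 and 36.2 RPKM, and Dlx3 was at 8.64 and 30.5 RPKM. Other members were near 0: the bulge surface gene Cd34 was at 0.031 and 0.028 RPKM and the stem cell receptor Lgr5 at 0.012 and 0 RPKM. Postn was at 1.5 and 0.16 RPKM, while Lhx2 was at 1.07 and 0.266 RPKM. The ligand Shh, which matrix cells make in the growing follicle, was listed in neither table. Members of both lists were thus present, and members of both were near 0.

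Terminal differentiation genes were mostly near 0. Of 23 such genes, 4 and 6 reached 1 RPKM in every library of the 2 tables, against 60.2% and 63.7% of all rows. Dmkn and Sbsn, which encode secreted proteins of the suprabasal layers, led: Dmkn was at 74 and 165 RPKM and Sbsn at 68.1 and 187 RPKM. The small proline-rich gene Sprr1b was at 18 and 37.7 RPKM. Ivl, which encodes the envelope protein involucrin, was at 0.782 and 0.596 RPKM. Lor, which encodes loricrin, was at 0.474 and 0.402 RPKM, and Flg was listed in neither table. Surface proteins that the study sorted tumor cells on were also expressed. Lypd3 was at 48.5, 44.2 and 46.5 RPKM and 77.5 and 79.5 RPKM. Ly6d was at 2.51, 2.44 and 2.07 RPKM and 16.3 and 20.4 RPKM, at ranks 9760 and 4018, so its place differed between the tables.

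Most markers of other cell types were at or near 0, with 12 exceptions. Of 79 genes in 7 lists of immune, endothelial, mesenchymal, melanocyte, muscle, nerve and erythroid or liver cells, 12 reached 1 RPKM in every DMSO library of each table, where 60.2% and 63.7% of all rows did, and 24 and 33 were not listed. Ptprc (CD45) was at 0 and 0.006 RPKM, the endothelial cadherin Cdh5 was not listed in the first table and was at 0.0065 RPKM in the second, and Col1a1 was at 0.094 and 0.012 RPKM. Acta2 was at 0.103 and 0.01 RPKM and Atoh1, a factor of Merkel cells, was listed at 0 in both. The 12 genes above 1 RPKM were Cd68, Col6a1, Dcn, Egfl7, Fbln1, Flt1, Mbp, Mitf, Pecam1, S100a4, Tubb3 and Twist1. Tubb3, a neuronal tubulin, led them in both tables at 21.1 and 36.7 RPKM. Of the endothelial list, Pecam1 was at 6.57, 5.23 and 5.45 RPKM and 10.7 and 11.8 RPKM and Flt1 at 15.3 and 5.04 RPKM. Of the mesenchymal list, S100a4 was at 6.63 and 15.5, Twist1 at 8.1 and 5.07, Col6a1 at 4.92 and 8.17 and Dcn at 2.13 and 1.89 RPKM. The macrophage gene Cd68 was at 8.43 and 17.6 RPKM. Mitf was at 11.5 and 9.06 RPKM, while Tyr of the same melanocyte list was at 0.038 RPKM in the first table and not listed in the second. Some of the 12, such as Col6a1 and S100a4, are also known from epithelial and tumor cells. The summed RPKM of the immune list was 7.83 to 11 in the libraries with SB431542 and 17.4 to 19.5 in those with T-5224, against 10419 to 10623 and 14469.7 to 15224 for the 4 basal keratins.

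**Figure D2:**
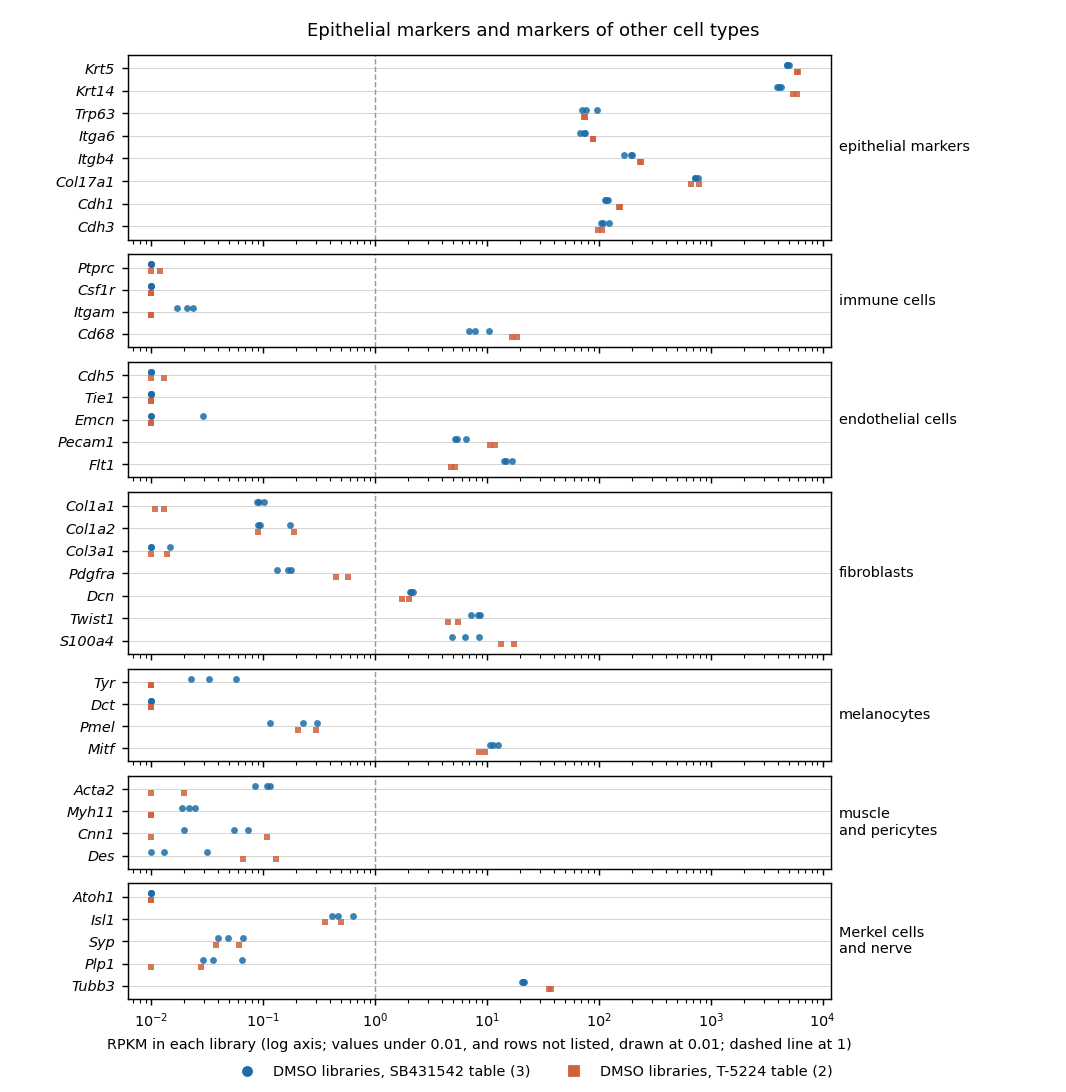
RPKM in each DMSO library on a log axis for epithelial markers and for markers of 6 other cell types, with circles for the table with SB431542 and squares for the table with T-5224. The 8 epithelial markers lie above 10 RPKM in every library, and of the others only Cd68, Pecam1, Flt1, Dcn, Twist1, S100a4, Mitf and Tubb3 lie above 1 RPKM in every library.

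Genes that anchor basal cells to the basement membrane were strongly expressed. Of 22 hemidesmosome and basement membrane genes, 18 reached 10 RPKM and 8 reached 100 RPKM in every library of each table. Of all rows, 33.5% and 35.3% reached 10 RPKM and 3.21% and 3.52% reached 100 RPKM. Col17a1, the transmembrane collagen of hemidesmosomes, was at 774, 721 and 726 RPKM and 665 and 781 RPKM. Itgb4, which pairs with Itga6 to bind laminin, was at 187 ± 15 RPKM (SD, n = 3) and 238 ± 3.99 RPKM (SD, n = 2). Among laminin chains, Lama3 was at 120.3 and 128 RPKM and Lamb3 at 229.7 and 330.3 RPKM. The nidogen genes Nid1 and Nid2, which link laminin to collagen IV, were near 0, Nid1 at 0.0067 and 0.004 RPKM and Nid2 at 0.066 and 0.115 RPKM. Of the collagen IV chains, Col4a1 was at 122 and 74.1 RPKM and Col4a6 at 0.021 and 0.032 RPKM.

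Desmosomal cadherins were led by the isoforms of basal cells. Among desmogleins and desmocollins, Dsg3 (103 and 126 RPKM) and Dsc3 (86.2 and 113 RPKM) exceeded Dsg2 (19.6 and 22.4 RPKM), Dsg1b (2.47 and 10.4 RPKM), Dsc1 (0.157 and 0.227 RPKM) and Dsc2 (0.013 and 0.019 RPKM). Perp, a p53 and p63 target of the desmosome, led the list at 403 ± 19.8 RPKM (SD, n = 3) and 667 ± 26.4 RPKM (SD, n = 2). Of the classical cadherins, Cdh1 (E-cadherin) was at 121, 113 and 116 RPKM and 156 and 152 RPKM and Cdh3 (P-cadherin) at 123, 106 and 108 RPKM and 99.3 and 108 RPKM. Cdh2 (N-cadherin), a cadherin of mesenchymal and neural cells, was also expressed, at 85.8, 71.9 and 73 RPKM and 53.6 and 51.5 RPKM. The cells thus held transcripts of 3 classical cadherins in every library.

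Among genes tied to the epithelial to mesenchymal transition, the factors were uneven. Snai2 (Slug), which basal keratinocytes also express, was at 45.6 and 32.8 RPKM, while Snai1 was at 0.013 and 0, Zeb1 at 1.06 and 0.283 and Zeb2 at 1.29 and 0.83 RPKM. The epithelial splicing factor Esrp1 was at 66.6 and 66.8 RPKM and Esrp2 at 18.3 and 36.5 RPKM. Vim, the mesenchymal filament, was at 1.8, 1.95 and 1.99 RPKM and 0.289 and 0.415 RPKM, and Fn1 (fibronectin) at 232, 215 and 212 RPKM and 107 and 106 RPKM. Among 26 integrin subunits, 7 and 9 reached 10 RPKM in every library of the 2 tables, close to the 33.5% and 35.3% of all rows. Itgb1 led in the first table and Itgb4 in the second, and in neither did the leading pair overlap. Itgb5 was at 63 and 83.8 and Itgav at 28.5 and 22.3 RPKM, while the leukocyte subunit Itgb2 was at 0.015 and 0 RPKM.

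Receptors and transducers of the Hedgehog pathway were expressed, while its targets Gli1 and Ptch1 were low. Gli1 (mm9 chromosome 10, 126766945 to 126778645), the pathway's usual readout, was at 2.35, 2.33 and 2.51 RPKM and 5.16 and 4.88 RPKM, at ranks 9728 and 8087. Ptch1, the receptor that is also a target, was at 2.08, 2.04 and 2.02 RPKM and 2.03 and 1.86 RPKM. Hhip, a decoy receptor and target, was not listed in the first table and was at 0.003 RPKM in the second, the level of a few reads at most. Smo, the signal transducer, was at 45.3, 54.1 and 58.1 RPKM and 64.2 and 66.8 RPKM, at ranks 1414 and 1014, above Gli1 and Ptch1 in every library.

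The co-receptors and Gli factors differed among themselves. Gas1 was at 40.4, 46.7 and 52.8 RPKM and 174 and 191 RPKM, so that Smo and Gas1 overlapped in the first table and Gas1 led in the second. Cdon was at 11 and 13.5 and Boc at 5.81 and 6.28 RPKM. Gli3, which acts largely as a repressor, was the highest Gli factor, at 17.7, 15.8 and 15.5 RPKM and 8.72 and 9.01 RPKM, and Gli2, the main activator, was at 1.86, 1.45 and 1.75 RPKM and 2.77 and 2.95 RPKM. The order Gli3, Gli1, Gli2 held in every library of both tables. The ligand genes were near 0, Ihh at 0.024 and 0.029 RPKM and Dhh at 0.0063 and 0 RPKM. Sufu, which holds the Gli factors in check, was at 14.7 and 18.2 RPKM, and the cilium gene Kif7 was at 5.49 and 3.76 RPKM. Of 18 transducers, 17 and 18 reached 1 RPKM in every library of the 2 tables, against 60.2% and 63.7% of all rows, and the kinase genes Csnk1a1 (102 and 124 RPKM) and Prkaca (60.7 and 70.5 RPKM) led. At 10 RPKM, 9 and 7 did, against 33.5% and 35.3% of all rows, and Gli1, Gli2 and Kif7 did not. Kinase and cilium genes were part of the list, so these counts are not specific to Hedgehog signaling. Among genes that Hedgehog signaling can induce, Ccnd2 held 50.7 to 53.4% and 64.2 to 65.3% of the summed RPKM of the list, and Ccnd2 is also induced by other signals. Foxm1, a factor of mitosis, was at 74.9 and 16.3 RPKM and Sfrp1, a Wnt inhibitor, at 17.5 and 24.9 RPKM. Mycn was at 0.03 RPKM in the first table and not listed in the second, and the mesenchymal targets Foxf1 (0.0077 and 0.013 RPKM) and Foxl1 (0.591 and 1.69 RPKM) were also low.

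**Figure D3:**
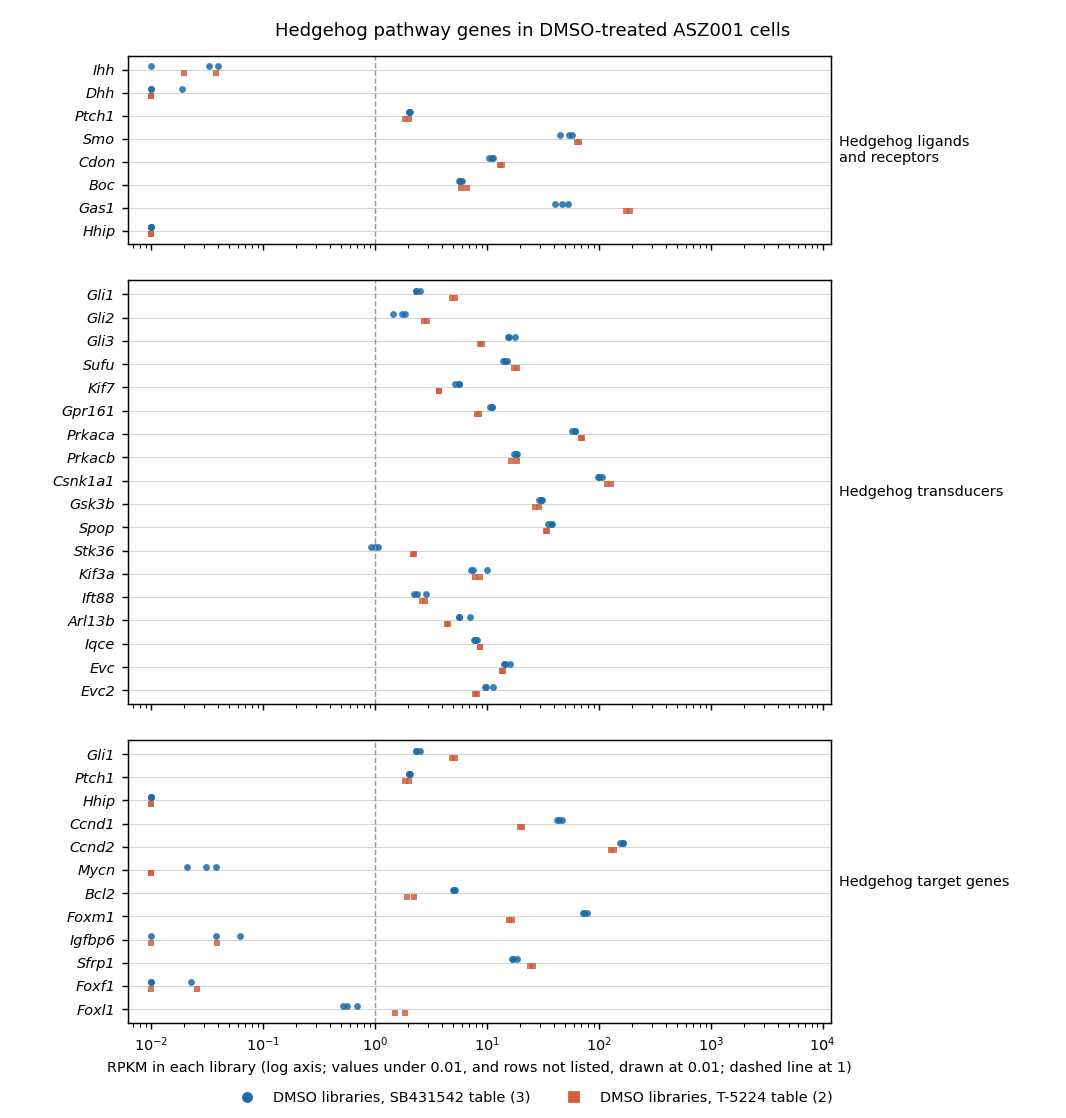
RPKM of Hedgehog ligands, receptors, transducers and target genes in each DMSO library on a log axis, with circles for the table with SB431542 and squares for the table with T-5224. Smo, Gas1, Csnk1a1 and Prkaca lie above 10 RPKM in every library, Gli1 and Ptch1 lie between 1 and 10 RPKM, and Hhip lies at the left edge.

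The TGFß pathway, which SB431542 blocks, was expressed from ligand to Smad. TGFß ligands signal through a type II and a type I receptor, and the type I receptor ALK5 (Tgfbr1) phosphorylates Smad2 and Smad3. Tgfb1 was at 30.9, 26.6 and 26.2 RPKM and 50.2 and 54.8 RPKM and Tgfb2 at 17.1, 14.2 and 14.5 RPKM and 25.9 and 24.2 RPKM, above Tgfb3 at 1.6 and 2.54 RPKM. The activin subunit gene Inhbb led the ligand list, at 38, 40.7 and 41.9 RPKM and 102 and 111 RPKM. Tgfbr1 was at 10.6 and 7.61, Tgfbr2 at 16.3 and 12.4, Smad2 at 8.92 and 6.99, Smad3 at 12.7 and 15.2 and Smad4 at 21.3 and 21.6 RPKM. Of the 18 genes listed with the receptors and Smads, 14 reached 1 RPKM in every library of each table, against 60.2% and 63.7% of all rows. That list also held Ski, Skil, Smurf1, Smurf2 and Pmepa1, which are neither receptors nor Smads, and Pmepa1 and Ski were its highest members. Acvr1c, the receptor ALK7, was at 0.0037 RPKM in the first table and not listed in the second. BMP signaling genes were higher at their targets than at their ligands: Id3 was at 113 and 125, Id1 at 69.4 and 41.3 and Id2 at 46.2 and 57 RPKM, while Bmp2 was at 10.8 and 14.8 and Bmp4 at 5.59 and 4.27 RPKM. The antagonist Fst was at 79.2 and 63.4 RPKM.

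AP-1, which T-5224 blocks, is a dimer of Jun, Fos and ATF family proteins. Of 7 Jun and Fos genes, Jund was at 91.8 and 189.7, Junb at 70.9 and 113, Jun at 67.8 and 51.6 and Fosl2 at 52 and 111 RPKM, and Fos was at 1.36 and 0.71, Fosb at 0.566 and 0.456 and Fosl1 at 1.02 and 0.227 RPKM. The abundant subunits were thus the 3 Jun genes and Fosl2. Jund held rank 708 and 224, Junb 987 and 491, Jun 1041 and 1375 and Fosl2 1442 and 514 in the 2 tables, while Fos ranked 10483 and 11135 and Fosl1 10830 and 12271. Atf4, a stress-induced factor, led the ATF, MAF and BATF genes in the first table, at 114 ± 5.79 RPKM (SD, n = 3), and was at 46.1 ± 1.39 RPKM (SD, n = 2) in the second, where it did not lead. MRTF proteins bind actin and act with SRF. Mkl1 (MRTF-A) was at 31.6 and 27.9, Mkl2 (MRTF-B) at 10.1 and 9.57 and Srf at 20.9 and 20 RPKM, and Myocd, the muscle member, was at 0 and 0.0025 RPKM. Smooth muscle targets of SRF were near 0, with Cnn1 at 0.05 and 0.055 and Tagln at 0.055 and 0.028 RPKM, whereas their widely expressed relatives Cnn2 (27.8 and 26.1 RPKM) and Tagln2 (302 and 344 RPKM) were not. Yap1 was at 50.6 and 55.4 and Wwtr1 (TAZ) at 26.3 and 24.8 RPKM, and Tead2 (37.8 and 39.2 RPKM) was the highest of the 4 Tead genes in the means of both tables. Rhoa was at 128 and 94.7 RPKM. Of 57 guanine nucleotide exchange factor genes, 37 reached 1 RPKM in every library of each table, a share close to the 60.2% and 63.7% of all rows. Arhgef17 was at 14.4, 14.9 and 15 RPKM and 11.7 and 12.6 RPKM, and Arhgef18 was at 20.6, 22.8 and 21.2 RPKM and 22.7 and 23.8 RPKM.

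Other growth signals were led by a few members each. Wnt4 was the highest of 19 Wnt ligands, at 55.6, 60 and 62 RPKM and 78.5 and 86.5 RPKM, followed by Wnt10a (35.3 and 57.5 RPKM) and Wnt7b (21.3 and 38.6 RPKM), and this order held without overlap in both tables. Among Wnt receptors Lgr4 (60.3 and 113 RPKM) and Fzd6 (47.9 and 76.5 RPKM) led. The target Axin2, which reports active Wnt signaling in many tissues, was at 1.54 and 1.35 RPKM, and the Wnt inhibitor genes Dkk1, Dkk2 and Sfrp2 were listed in neither table, while Sfrp1 was at 17.5 and 24.9 RPKM. Jag2 (49.2 and 51.9 RPKM) and Notch1 (29.4 and 33.8 RPKM) led the Notch ligands and receptors, with Hes1 at 33.1 and 31.6 RPKM. Fgfr2, a receptor of epithelia, was at 47 and 71.7 RPKM and Fgfr4 was listed at 0 in the first table and not listed in the second. Of the EGF receptor family, Erbb2 (26.5 and 38.1 RPKM), Egfr (23 and 16.8) and Erbb3 (16.4 and 18.4) were expressed and Erbb4 was at 0.005 and 0.012 RPKM.

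Among other receptor kinases the collagen receptor Ddr1 led in both tables, at 74.6, 92.5 and 95.7 RPKM and 221 and 236 RPKM, although it overlapped with Met in the first. Met, the receptor of hepatocyte growth factor, was at 75.7, 78.3 and 80.2 RPKM and 57.1 and 56.1 RPKM, while Hgf itself was at 0.005 RPKM in the first table and not listed in the second. The mesenchymal receptors Pdgfra (0.16 and 0.515 RPKM) and Pdgfrb (0.0033 and 0 RPKM) were near 0 although their ligand gene Pdgfa was at 105 and 75 RPKM. Of 27 chemokine and cytokine genes, Cxcl16 (35.8 and 44.8 RPKM) led in the first table, and Ackr3 (16.7 and 47.2 RPKM) and Cxcl16 did in the second. The inflammatory cytokine gene Il1b was at 0.024 and 0 RPKM and Tnf at 0.421 and 0.278 RPKM, and Il6 was listed at 0. MHC class I genes were low next to their light chain, with H2-K1 at 14.1 and 12.2 and H2-D1 at 23.4 and 26.7 RPKM and B2m at 110.3 and 139 RPKM, and the related class I genes share reads that the counting could split between them. The checkpoint ligand gene Cd274 (PD-L1) was at 0.415 and 0.257 RPKM.

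Small binding proteins and matrix proteins were among the highest rows. Tmsb4x, a thymosin that binds actin, was at 483 and 1127 RPKM, Lgals7 at 606, 552 and 599.9 RPKM and 1351 and 1349 RPKM, and S100a6 at 390.0, 440.4 and 459 RPKM and 868 and 885 RPKM. Among S100 genes S100a11 led in the first table, at 1054, 669 and 716 RPKM, and S100a6 in the second. S100a8, which psoriatic and wounded keratinocytes express, was listed at 0 in both tables. Of the annexins, Anxa2 was at 468 and 404 and Anxa1 at 266 and 246 RPKM, and the order Anxa2, Anxa1 held without overlap in both. Among matrix proteins Timp3 (274 and 125 RPKM), Fn1 (219.6 and 107), Thbs1 (203 and 143), Tnc (179 and 116), Sparc (177 and 216) and Tgfbi (129 and 309.5) were each above 100 RPKM in the means of both tables. Of the matrix metalloproteinases listed, Mmp9 was at 0.032 and 0.046, Mmp2 at 1.44 and 1.67, the stromelysin Mmp3 at 0.723 and 9.18 and the membrane type member Mmp14 at 46.8 and 67.7 RPKM. Of other proteases that act in the matrix, Htra1 was at 272 and 278 RPKM and Adamts1 at 150.2 and 22.8 RPKM.

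Genes of DNA replication and mitosis ranked lower in the table with T-5224. To set the tables side by side, percentiles were taken over the 15997 rows found in both, and a row was counted where its mean percentile differed by at least 10 points and the libraries did not overlap. Of 10901 rows with a mean of at least 1 RPKM over the 5 libraries, 9.51% were lower in the table with T-5224 and 8.96% were higher. Of the 47 replication and mitosis genes, 46 were lower and 0 were higher, and the remaining gene was Rpa1. Mki67, the proliferation antigen Ki-67, was at 64.2, 44.2 and 43.4 RPKM and 2.79 and 3.34 RPKM, and its mean percentiles were 90.4 and 43. Top2a, a topoisomerase of dividing cells, was at 161, 159 and 166 RPKM and 26 and 23 RPKM, at percentiles 97.8 and 80.4. Ccnb1, the mitotic cyclin, was at 53.9, 66.2 and 66.7 RPKM and 4.18 and 3.61 RPKM. The helicase genes Mcm2 to Mcm7 were at 51.6 to 92.8 RPKM in the means of the first table and at 11.1 to 20.2 RPKM in those of the second.

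Genes of the G1 phase were found on both sides. Cdkn1a, which encodes the kinase inhibitor p21, was at 18.9, 19.6 and 22.3 RPKM and 76.8 and 77.9 RPKM, at percentiles 76.1 and 94.8, and Cdkn1c and Cdkn2b were also among the rows counted as higher. Cdkn2a, the gene of p16 and p19ARF, was high in both, at 85.8, 98.7 and 103 RPKM and 137 and 142 RPKM, as was Trp53, at 83.5, 87.4 and 87.7 RPKM and 68.9 and 71.2 RPKM. Of 24 G1 genes with a mean of at least 1 RPKM, 8 were lower and 3 higher, against 9.51% and 8.96% of all rows. The D cyclins Ccnd2 (161 and 133 RPKM) and Ccnd3 (50.3 and 36.2 RPKM) were not counted, and Ccnd1 (44.8 and 20.2 RPKM) was lower. Of 19 hemidesmosome and basement membrane genes with a mean of at least 1 RPKM, 0 were counted in either direction. The labels give the same medium, serum and hours for all DMSO samples, and the culture's density was not given in the sources used here. Whether density, date or another step of the experiments goes with these ranks was not tested, and experiment and table cannot be told apart.

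**Figure D4:**
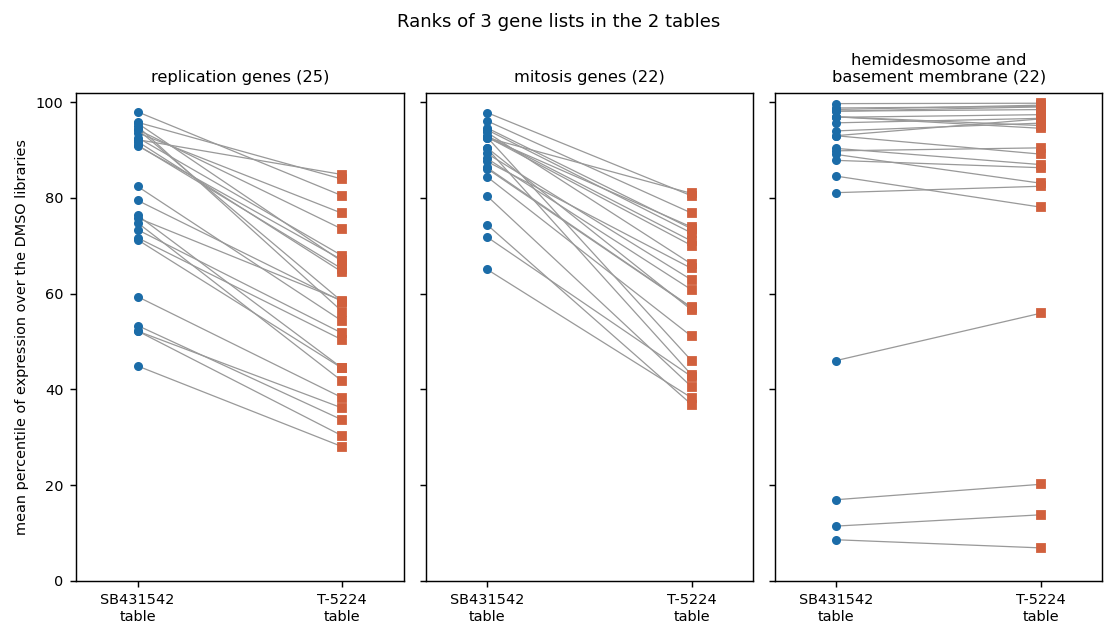
Mean percentile of expression in the DMSO libraries of each table for the 25 replication genes, 22 mitosis genes and 22 hemidesmosome and basement membrane genes, with a line for each gene. All 47 lines of the first 2 panels go down from left to right, 46 of them by at least 10 points, while no line of the third panel differs by 10 points or more between its ends.

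Growth factor and stress genes were found on both sides. Of the EGF family ligands, Epgn was at 14.5, 14.9 and 12.6 RPKM and 2.57 and 2.19 RPKM and Nrg1 at 8.19, 5.8 and 5.3 RPKM and 1.55 and 1.23 RPKM, and both were counted as lower in the table with T-5224. The secreted matrix protein gene Cyr61, a YAP and SRF target, was at 72.8, 79.8 and 82.8 RPKM and 12.9 and 10.9 RPKM, and the chemokine gene Cxcl1 at 22.1, 15 and 11.1 RPKM and 1.35 and 2.35 RPKM. On the other side were Vegfa (16.1 and 41.5 RPKM), the cornified envelope gene Sprr1b (18 and 37.7 RPKM) and Sostdc1 (9.48 and 36.9 RPKM). Of 17 interferon response genes, 6 were higher and 0 lower, against 8.96% and 9.51% of all rows. Isg15, a ubiquitin-like protein, was among the 6 at 8.27 and 15.8 RPKM.

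Lipid synthesis genes were widely expressed, and glycolysis genes in part. Of 29 glycolysis genes, 15 and 16 reached 10 RPKM in every library of the 2 tables, against 33.5% and 35.3% of all rows. At 1 RPKM, 17 and 18 did, near the 60.2% and 63.7% of all rows. The other tables' members, 12 and 11, were under 1 RPKM in every library or not listed. Of 21 genes of sterol and fatty acid synthesis, 20 and 18 reached 10 RPKM in every library. The glucose transporter gene Slc2a1 was at 123, 126 and 125 RPKM and 561 and 585 RPKM, at ranks 468 and 45, while Slc2a3 was at 0.181 and 0.115 RPKM and Slc2a4 at 0.045 and 0.065 RPKM. Aldoa was at 502 and 1118, Ldha at 634 and 861, Tpi1 at 366 and 605 and Pkm at 685 and 522 RPKM, while the muscle isozyme Pgam2 was at 0.018 and 0.142 RPKM. Scd2, a desaturase that makes monounsaturated fatty acids, led its list of 21, at 689.9, 741 and 744 RPKM and 797 and 732 RPKM. Of the antioxidant genes Prdx1 (351 and 365 RPKM) led in both tables. Other glycolysis genes differed widely between the tables: Gapdh was at 2646, 2092 and 2105 RPKM and 10.1 and 11.1 RPKM, and Pgk1 at 245, 326 and 340.4 RPKM and 27.5 and 28.8 RPKM.

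Genes with exact copies of their sequence elsewhere in the genome often ranked lower in the table with T-5224. Many abundant transcripts, those of ribosomal proteins and Gapdh first among them, have been copied back into the genome as processed pseudogenes, and a short read from such a gene fits several places. To measure this, each coding sequence was cut into all its 30-base windows, and exact copies of each window were counted on both strands of the mm9 genome. Windows were available for 87.6% of the 10901 rows. Of 6486 genes without a repeated window, 6.15% were lower in the table with T-5224 and 9.97% were higher. Of 257 genes with over 80% of windows repeated, 61.9% were lower and 2.33% were higher, with median percentiles of 96.8 and 67.7 in the 2 tables. The shares in between lay in order, 7.12% at up to 20% repeated, 15.9% at up to 50% and 37.9% at up to 80%. A gene could enter these counts through its level in 1 table alone.

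The windows show what such genes share. For each gene the coding window with the most exact copies in mm9 is given, 5′ to 3′ on the coding strand and in lower case throughout, for 3 genes that were far lower in the table with T-5224 and 2 that were not.
Gapdh: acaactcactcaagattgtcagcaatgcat
Ppia: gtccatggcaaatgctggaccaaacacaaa
Rpl23a: cccaggagaaacaagcttgaccactatgct
Slc2a1: agaaggtgacgggccgcctcatgttggctg
Col17a1: atggatgtgaccaagaaaagcaagcgagat
The Gapdh window (coding bases 416 to 445) occurs 132 times in the genome, that of Ppia (bases 294 to 323) 27 times and that of Rpl23a (bases 196 to 225) 33 times, and every coding window of these 3 genes that was found in the genome is repeated. Gapdh lies on mm9 chromosome 6, 125111871 to 125116485, Ppia on mm9 chromosome 11, 6315446 to 6319820 and Rpl23a on mm9 chromosome 11, 77994434 to 77997086. Slc2a1 lies on mm9 chromosome 4, 118781316 to 118809935 and Col17a1 on mm9 chromosome 19, 47720834 to 47766584. The windows of Slc2a1 and Col17a1 occur once, as does every other window of their coding sequences that was found unspliced in the genome.

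The repeated genes were high in 1 table and low in the other. Ppia, which encodes cyclophilin A, was at 2840.1, 2947 and 3028 RPKM in the libraries with SB431542 and 10.1 and 9.59 RPKM in those with T-5224, at ranks 4 and 6091. Rpl23a was at 1282, 972 and 996 RPKM and 1.74 and 1.46 RPKM, at ranks 20 and 10228. The T-5224-treated libraries of the second table gave 8.41 to 8.88 RPKM for Gapdh, and the SB431542-treated libraries of the first gave 2334 to 2401 RPKM. For Gapdh the inhibitor libraries of each table thus lay near its DMSO libraries. So did those for Ppia, at 3052 to 3083 RPKM in the first table and 8.53 to 8.66 RPKM in the second. Those for Rpl23a gave 998 to 1052 RPKM in the first table. In the second they gave 1.2 to 5.59 RPKM, a wider range than that of its DMSO libraries. Krt5 and Slc2a1 lay apart from their DMSO libraries in the second table, where the libraries with T-5224 gave 579 to 599 RPKM and 195 to 205 RPKM. Of 59 ribosomal protein genes with over 80% of windows repeated, 46 were counted as lower, with medians of 543 and 18.5 RPKM. Rpl8, with 13.2% of windows repeated, was not counted and was at 698 and 853 RPKM. Rpl24 went against the pattern, with no repeated window and 442 and 2.09 RPKM. Conversely, 3 rows named as ribosomal copies were among the 500 highest rows of the second table and low in the first: Rpl32l at 0.177 and 155 RPKM, Rplp2-ps1 at 5.41 and 371 RPKM and Rpl37rt at 15.2 and 326 RPKM. How the authors treated reads with several matches is not given in the sources used here, and the cause was not tested. Of the 38 replication and mitosis genes with under 20% of windows repeated, 37 were counted as lower. Among all genes, 6.15% of those without a repeated window and 7.12% of those with up to 20% repeated were.

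**Figure D5:**
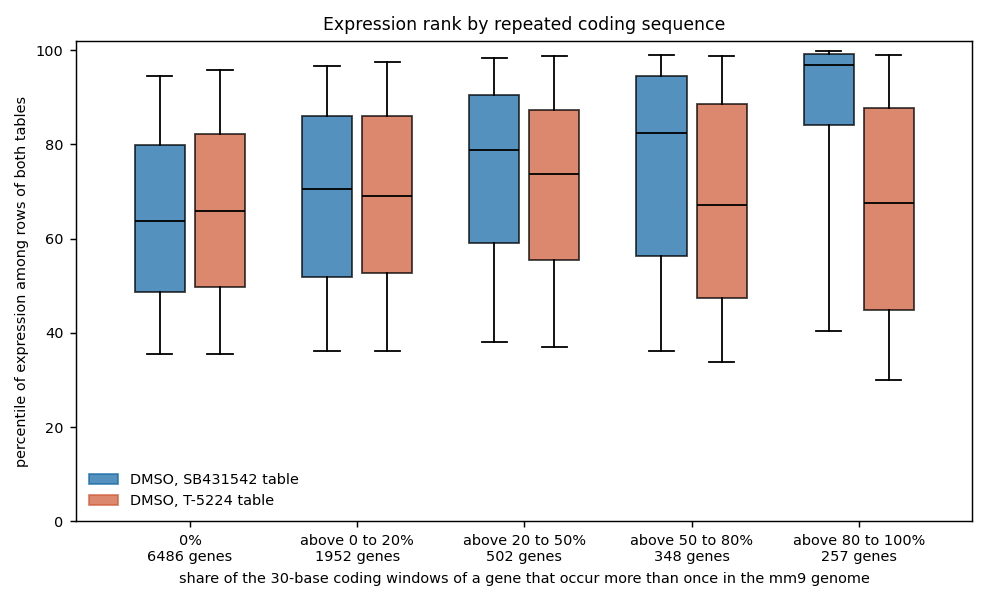
Percentile of expression among rows of both tables, as boxes (median and quartiles, whiskers from the 5th to the 95th percentile of genes) by the share of a gene's 30-base coding windows that occur more than once in mm9. Where no window is repeated the medians are 63.8 in the table with SB431542 and 65.9 in the table with T-5224, and at over 80% repeated they are 96.8 and 67.7.

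Common reference genes differed in how far they kept their place between the tables. Among genes often used to normalize expression, Actb was at 1267 ± 132 RPKM (SD, n = 3) and 1102 ± 14.9 RPKM (SD, n = 2) and Hprt at 40 ± 5.49 and 41.5 ± 2.25 RPKM. Sdha (46.1 and 56 RPKM) and Tbp (16.2 and 11.8 RPKM) also held similar values in both tables, while Gapdh, Ppia, Pgk1 and Tfrc (65.5 and 13.3 RPKM) were counted as lower in the second. Tfrc, the transferrin receptor, is the one of these 4 with under 20% of its coding windows repeated. With genes limited to under 20% of windows repeated, the 100 highest genes of the 2 tables had 72 in common, against 47 of 100 over all rows.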

How the data were processed

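RNA was extracted as total RNA, and libraries were prepared with a TruSeq Stranded mRNA kit and sequenced on a HiSeq2000. The authors aligned reads to mm9 with TopHat and counted them with HOMER. The deposited values are RPKM, given to 3 decimals, with rows at 0 in every library of a table left out. No counts were used here, the handling of strand and of reads with several matches is not given in the sources used here, and the reads per library were read from whole multiples of the value of 1 read in genes under 250 bases long in RefSeq (values within 0.1 of a whole number, 100% of 116 to 169 values).

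The 5 DMSO columns were described and the 5 inhibitor columns were used only for the check of 6 genes. The columns of the T-5224 table are numbered 1 and 2 and the labels 4 and 5, so they carry no numbers that match single samples. Rows named as dates were left out of ranks. Ranks, percentiles and shares of summed RPKM were computed with python 3.11.15, numpy 2.4.6 and pandas 2.3.3. Members and gene lists (76 lists) were chosen with earlier results of these data known. Named genes were taken from the 25 highest rows of each table, the highest, lowest or defining members of each list, genes the study names in ASZ001 cells, rows in which replicate 1 of the first table or any library stood farthest from the others, and the 5 rows in each direction among the 500 highest of a table that rank lowest in the other. Percentile shifts used rows with a mean of at least 1 RPKM. Repeats were counted as exact 30-base matches to mm9. The scripts were tested on simulated data. Alternatives changed the RPKM level, the scaling, the pseudocount of 0.5, the rows included and the libraries included. Since RPKM is relative, an increase in one abundant gene lowers the rest, and fewer cells of a type and less RNA per cell cannot be told apart. Some genes of these lists are counted in the totals and not reported here by name.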

Additional observations from a re-analysis of the deposited data

Results flagged for a closer look

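Both tables hold rows whose gene names had been turned into dates, a known spreadsheet conversion of symbols such as those of the septin and March genes. There were 22 such rows in the table with SB431542 and 23 in the table with T-5224, and they were left out of the ranks because the gene behind a date was not assigned here. Of them, 13 in each table were at 10 RPKM or more in every DMSO library. The highest was at a mean of 109.949 RPKM in the table with SB431542 and another at 191.752 RPKM in the table with T-5224.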

How the results depend on the processing

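Most leading members stayed the same under the settings tried, 144 of 148. Of 370 shares of leading members recomputed, all 370 stayed within 1 SD of the libraries. Leaving out 1 library of 3 or 2 cannot move a mean share by 1 SD, and scaling a library leaves a share within a list unchanged. The count of 370 therefore says nothing on whether the shares depend on such settings. The 20 values of spread between libraries stayed within 1.5 times under the other pseudocounts, filters and centring. Leaving out each DMSO library in turn gave 10678 to 10747 rows at 1 RPKM or more in the table with SB431542 and 10785 to 10799 in the table with T-5224. Without ribosomal and short noncoding rows the 10 highest rows held 7.79% of summed RPKM in the table with T-5224. Alternatives limited to genes with under 20% of coding windows repeated were chosen after seeing the data. There the 100 highest genes of the 2 tables shared 72, and 538 rows were lower by at least 10 percentile points in the table with T-5224, against 1037 over all rows, among fewer genes. Rows that were higher numbered 766 there and 909 without replicate 1 of the table with SB431542, against 977. The set limited by windows held fewer genes, so its counts do not compare directly with those over all rows. Of genes without a repeated window 6.15% were lower and 9.97% higher, and of those with up to 20% repeated 7.12% and 6.1%. Over all rows these shares were 9.51% and 8.96%. No paired analysis was possible because no test was made and the columns of the T-5224 table carry other numbers than the labels. Depth limits values near 0, where 1 read decides whether a row is listed.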

Other observations

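Cell contacts beyond desmosomes were led by a few genes. Gja1 (connexin 43), a gap junction subunit of the epidermis, was at 109.9, 106 and 109 RPKM and 146 and 141 RPKM, while Gjb2 (connexin 26) was listed at 0 in the table with SB431542 and not listed in the table with T-5224. Of 23 tight junction genes, F11r, an adhesion receptor, was highest at 66 and 79.8 RPKM, and Tjp1, the scaffold ZO-1, was at 26.4 and 16.8 RPKM. Claudins were lower: Cldn1 was at 5.49 and 5.23 RPKM and Cldn4 at 10.3 and 4.94 RPKM. Collagen genes outside the basement membrane were mostly near 0, with Col3a1 at 0.008 and 0.007 RPKM, apart from Col18a1 (79.3 and 71.6 RPKM), Col8a1 (67.1 and 58.9 RPKM) and Col12a1 (42.5 and 16.6 RPKM). The sebocyte factor Pparg was at 0.026 and 0.038 RPKM although the lipid gene Scd1 was at 134 and 132 RPKM.

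Among 17 genes of p53 and its targets, 4 ranked higher in the table with T-5224 by at least 10 percentile points and 0 lower, against 8.96% and 9.51% of all rows. They were Cdkn1a, Bbc3 (1.04 and 3.28 RPKM), Sesn1 (8.2 and 15.7 RPKM) and Trp53inp1 (8.81 and 30.6 RPKM), while Mdm2, a p53 target that degrades p53, was at 24.8 and 26 RPKM and was not counted. Of the BCL2 family, the survival genes Mcl1 (53.1 and 69 RPKM) and Bcl2l1 (22.3 and 31 RPKM) exceeded Bcl2 (5.12 and 2.09 RPKM), and the death genes Bak1 (74 and 83.7 RPKM) and Bax (53.4 and 69.6 RPKM) were also expressed. Among proteases, Adamts1 was at 144, 156 and 150.3 RPKM and 23.3 and 22.3 RPKM and was counted as lower.

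Shares of promoters that hold common motif letters were also counted, as a description. In RefSeq promoters of GRCm38.p6, taken from 250 bases before to 50 after the start and searched on both strands, the GC box letters GGGCGG were found in 35.9% of all 27025 promoters. They were found in 68.6% and 68.4% of promoters of genes at 1 RPKM or more in every library of the table with SB431542 and the table with T-5224. The letters TATAAA were found in 14.2% of all promoters, in 6.26% and 6.30% of those of expressed genes and in 15.1% and 16.7% of those of the 100 highest rows. The AP-1 letters TGACTCA were found in 5.17% of all promoters and in 3.28% and 3.38% of those of expressed genes. The GLI letters GACCACCCA were found in 0.244% of all promoters and in 0.215% and 0.216% of those of expressed genes. Promoters of mouse chromosome 18 were not searched, and a match says only that the letters are present.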
